A study of Homo sapiens with 10 samples.

Results

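The genes AREG, EREG, HBEGF, TGFA and NRG1 encode ligands of the ERBB receptors, and their H3K27ac signal was followed in H1975, an established EGFR-mutant lung adenocarcinoma line, by chromatin immunoprecipitation and sequencing (ChIP-seq). The members were all regions of the deposited annotated count table that carried one of these 5 gene symbols. They numbered 61, all of the same width, among 67387 annotated regions and 169637 regions counted in all. EREG had 15 of them, NRG1 16, HBEGF 11, AREG 10 and TGFA 9. Of the 61 regions, 15 were annotated within 1 kb of a transcription start and are called promoter regions here, and 46 were not. Controls (DMSO) spent 21 days without drug before 3 days in DMSO. Osimertinib drug tolerant persister cells (osimertinib DTP) were held for 24 days in 500 nM osimertinib, which inhibits mutant EGFR. In the last group (osimertinib DTP + AZD5153), 21 days in 500 nM osimertinib came before 3 days in 150 nM AZD5153, a BET bromodomain inhibitor. The labels call that group a sequential combination and do not say whether osimertinib was kept on during the AZD5153 days. Each group had 3 biological replicates of the same line, and 1 pooled input had 3 to 29 counts in the member regions.

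ERBB receptors are receptor tyrosine kinases, and each ligand binds its own subset of them. AREG and TGFA bind EGFR, EREG and HBEGF bind EGFR and ERBB4, and NRG1 binds ERBB3 and ERBB4. All are made as membrane-anchored precursors that proteases such as ADAM17 cut free, so that a cell can stimulate itself and its neighbours. In epithelial cells, transcription of AREG, EREG, HBEGF and TGFA is known to respond to MAPK signalling below EGFR. Acetylation of lysine 27 of histone H3 is found on nucleosomes that flank start sites and enhancers in use, and BET proteins, the targets of AZD5153, read acetylated histones. EREG and AREG are neighbours on chromosome 4, and the annotation gives each region to the gene with the nearest annotated start.

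The promoter sequences of 4 ligands are shown because H3K27ac summed over the promoter regions of these genes was lower than DMSO at AREG, EREG and TGFA and higher at HBEGF. They are the 250 bases before the start in RefSeq (GRCh38.p14), read 5′ to 3′ on the gene's strand, at chr4:74444886-74445135 (AREG, plus strand), chr4:74364895-74365144 (EREG, plus strand), chr5:140346604-140346853 (HBEGF, minus strand) and, for 2 TGFA entries on the minus strand, chr2:70553447-70553696 and chr2:70553827-70554076. Capitals mark matches, on either strand, to an AP-1 site (TGANTCA), a cyclic AMP response element (CRE, TGACGTCA), a TATA box (TATAAA), a GC box (GGGCGG) or a TEAD site (GGAATG).
AREG: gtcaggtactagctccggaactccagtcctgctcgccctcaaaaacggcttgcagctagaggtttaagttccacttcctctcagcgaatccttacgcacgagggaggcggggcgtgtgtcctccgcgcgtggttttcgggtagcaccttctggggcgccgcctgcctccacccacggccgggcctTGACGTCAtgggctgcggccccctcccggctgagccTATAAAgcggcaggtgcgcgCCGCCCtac
EREG: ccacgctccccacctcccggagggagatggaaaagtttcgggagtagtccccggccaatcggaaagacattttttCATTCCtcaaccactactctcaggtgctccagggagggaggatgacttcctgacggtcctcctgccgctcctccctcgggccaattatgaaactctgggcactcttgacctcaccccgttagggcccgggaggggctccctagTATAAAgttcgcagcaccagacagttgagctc
HBEGF: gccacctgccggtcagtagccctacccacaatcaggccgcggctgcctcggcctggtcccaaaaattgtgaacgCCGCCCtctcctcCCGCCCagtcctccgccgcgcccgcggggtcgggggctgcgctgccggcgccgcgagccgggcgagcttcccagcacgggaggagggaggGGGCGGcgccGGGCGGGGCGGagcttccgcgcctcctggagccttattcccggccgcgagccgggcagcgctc
TGFA, entry 1: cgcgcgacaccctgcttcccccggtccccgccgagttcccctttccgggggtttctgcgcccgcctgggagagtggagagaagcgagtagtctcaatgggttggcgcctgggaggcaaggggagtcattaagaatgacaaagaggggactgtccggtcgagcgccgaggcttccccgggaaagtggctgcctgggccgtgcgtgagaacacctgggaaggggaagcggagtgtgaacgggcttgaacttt
TGFA, entry 2: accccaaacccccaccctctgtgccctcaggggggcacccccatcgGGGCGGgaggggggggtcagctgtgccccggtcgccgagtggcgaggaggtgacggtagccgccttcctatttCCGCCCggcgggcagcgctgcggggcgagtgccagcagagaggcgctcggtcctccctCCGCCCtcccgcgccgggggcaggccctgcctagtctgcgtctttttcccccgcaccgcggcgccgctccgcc
The AREG promoter held the palindromic CRE 65 to 58 bases before the start, a TATA box at 29 to 24 and a GC box at 9 to 4. The EREG promoter held a TATA box at 32 to 27 and a TEAD match at 175 to 170. HBEGF had 5 GC boxes, the last 2 sharing a base, and TGFA had 3 in entry 2 and no match to any of these motifs in entry 1. None of the 5 windows held the AP-1 letters. Among 35116 RefSeq promoters searched over the same length, 1.65% held the CRE, 10.72% the TATA box, 42.64% the GC box, 11.89% the TEAD letters and 6.57% the AP-1 letters. The sequence was 65.2% G and C at AREG, 58.0% at EREG, 76.4% at HBEGF and 64.0% and 75.6% at the TGFA entries. Member promoter regions overlapped the windows of AREG, EREG and HBEGF and entry 1 of TGFA. No counted region overlapped entry 2, the nearest being 122 bp away.

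Libraries had between 6263443 and 10463351 counts over all regions, and 2 of the 9 stood apart. In replicate 2 of osimertinib DTP 59.8% of the counts in annotated regions lay in promoter regions, and in replicate 3 of osimertinib DTP + AZD5153 66.7%, against 40.3% to 45.9% in the other 7. Replicate 3 of osimertinib DTP + AZD5153 also had the fewest counts and a Spearman correlation of 0.354 to 0.430 with its own group, against 0.817 to 0.898 elsewhere within groups. Counts per gene, and the regions named whose call then changed, are therefore also given from a fit without these 2 libraries. All 6 epithelial and all 3 lung lineage marker genes had an annotated promoter region with signal, at 7.53 to 63.0 CPM in DMSO (CPM, the counts of a region scaled to library size). The promoters of PTPRC, CD3E, PECAM1, VWF and DCN had no annotated region, and those of CD68, CDH5, COL1A1 and COL1A2 did. In DMSO, CD68 had 21.2 and CDH5 13.5 CPM, within the range of the epithelial and lung lineage markers. The summed level at both collagen promoters was 9.29 CPM in DMSO, against 30.5 in osimertinib DTP and 33.5 for osimertinib DTP + AZD5153, and its part in the ligand results was not tested. The summed epithelial markers were at 181.2, 249.2 and 256.4 CPM in the same order and the lung lineage markers at 41.0, 40.6 and 46.8, where NKX2-1 (11.7, 24.3 and 29.4) and SFTPB (7.53, 4.32 and 1.97) went opposite ways, and their part was not tested either.

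H3K27ac at the ERBB ligands did not move as a block. In osimertinib DTP it fell at EREG, TGFA and most AREG regions and rose at HBEGF. At NRG1, 3 of 13 intronic regions were called higher, and 6 of the 13 had negative changes, none of them called. All 61 member regions entered the edgeR test, in which a region is called when its adjusted p is under 0.05 over 157919 regions. Of the members, 7 were called higher than DMSO and 10 lower, where 5.58% of all tested regions were called higher and 5.13% lower. The members belong to the 67387 annotated regions. The share called among those alone was not computed, so the shares given are of a wider set. The higher ones were 4 HBEGF and 3 NRG1 regions, and the lower ones were 4 AREG, 3 EREG and 3 TGFA regions. In osimertinib DTP + AZD5153 against the same DMSO libraries, 12 were called higher and 15 lower, with 9.05% and 9.01% of all regions called. The higher ones were 9 HBEGF and 3 NRG1 regions, and the lower ones 4 AREG, 5 EREG and 6 TGFA regions. The median log2 fold change of the 61 regions was −0.87 in osimertinib DTP and −0.66 for osimertinib DTP + AZD5153, against 0.15 and 0.23 over all tested regions. Over the annotated regions alone it was 0.18 and 0.24. Since both comparisons share their controls, their values are given side by side and not as 2 independent results. In bulk chromatin, fewer cells carrying the mark and less of the mark per cell cannot be told apart.

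The direction was shared within a gene more widely than the calls. In both comparisons with DMSO, all 15 EREG and all 9 TGFA regions had negative fold changes and all 11 HBEGF regions had positive ones. AREG had 8 negative and 2 positive in both, and NRG1 had 10 positive and 6 negative in osimertinib DTP and 12 and 4 for osimertinib DTP + AZD5153. Neighbouring regions share an element and are not independent. Merged within 1000 bp, the 61 regions formed 4 loci at AREG, 6 at EREG, 2 at HBEGF, 4 at TGFA and 8 at NRG1. By position, 4 of 15 promoter regions and 13 of 46 other regions were called in osimertinib DTP, and 5 of 15 and 22 of 46 in osimertinib DTP + AZD5153. The called shares of all regions in each class were not computed, so the classes are not compared. Without the 2 promoter-heavy libraries, 12 members were called higher and 26 lower in osimertinib DTP, and 19 higher and 26 lower in osimertinib DTP + AZD5153. The shares of all regions rose too in that fit, to 14.9% (higher) and 12% (lower) in osimertinib DTP and 22.8% and 19.8% for osimertinib DTP + AZD5153. The signs at all HBEGF, EREG and TGFA regions were as above in each of the 17 alternative settings, these libraries left out included. The number of calls rested on single libraries. In osimertinib DTP it was 0 higher and 1 lower without replicate 2 of DMSO, 0 and 4 without replicate 3 of DMSO, and 14 and 25 with replicate 3 of osimertinib DTP + AZD5153 left out, which enters through the shared fit. The shares of all regions called moved as well, to 0.407% higher and 0.294% lower without replicate 2 of DMSO, 0.812% and 1.13% without replicate 3 of DMSO, and 14.2% and 12.7% with replicate 3 of the last group left out.

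**Figure D1:**
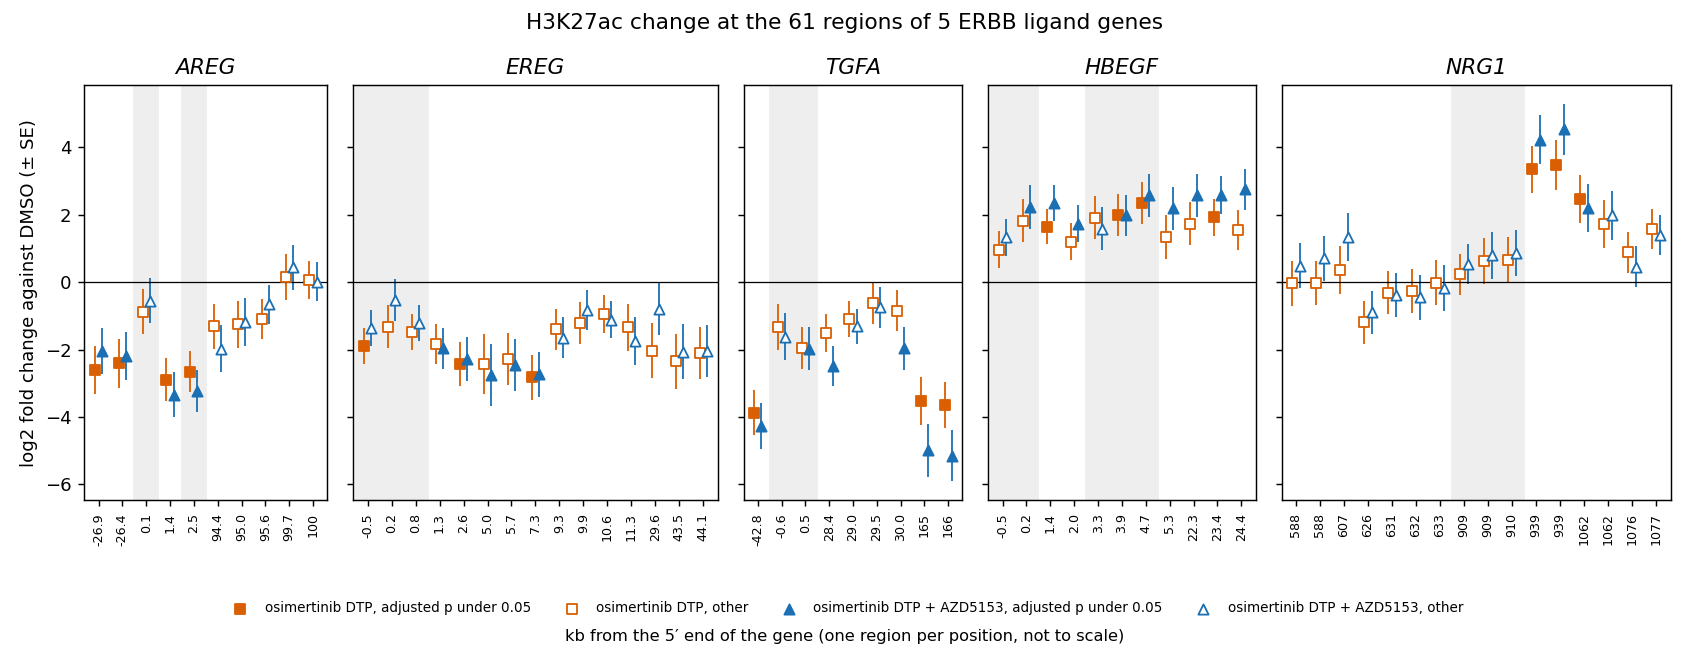
Log2 fold change of H3K27ac against DMSO (vertical axis, error bars are SE from edgeR) at each of the 61 ligand regions, ordered along each gene with the distance from the gene's 5′ end in kb on the horizontal axis. Orange squares are osimertinib DTP, blue triangles osimertinib DTP + AZD5153, filled symbols have an adjusted p under 0.05 and grey shading marks promoter regions. All 15 EREG and all 9 TGFA regions lie below 0 and all 11 HBEGF regions above it.

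AREG, which encodes amphiregulin, a ligand of EGFR, had its largest called losses just inside the gene. The region over the start (chr4:74445009-74445510) had 8.89, 16.4 and 11.8 CPM in DMSO, against 3.92, 13.6 and 2.82 in osimertinib DTP and 4.91, 4.54 and 16 for osimertinib DTP + AZD5153. The groups overlapped, because the 2 promoter-heavy libraries were as high as DMSO, and the log2 fold changes of −0.87 ± 0.67 and −0.55 ± 0.67 (SE) were not called (adjusted p = 0.461 and 0.620, edgeR). Without those 2 libraries they were −1.84 (adjusted p = 0.00247) and −1.31 (adjusted p = 0.0158), and 5 of 10 AREG regions were called lower in osimertinib DTP and 6 for osimertinib DTP + AZD5153 in place of 4 and 4.

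The next AREG region, 1.4 kb into the gene (chr4:74446331-74446832), had 5.71, 15.2 and 8.45 CPM in DMSO, against 2.01, 0.835 and 1.01 in osimertinib DTP and 1.30, 1.05 and 0.387 for osimertinib DTP + AZD5153. Every treated library was below every DMSO library. The log2 fold change was −2.90 ± 0.64 in osimertinib DTP (adjusted p = 0.0105, edgeR) and −3.35 ± 0.66 in osimertinib DTP + AZD5153 (adjusted p = 0.00372), the largest called changes of this gene in both comparisons. The region 2.5 kb into the gene, which the annotation places near the start of another AREG transcript, fell by a similar amount, with −2.65 and −3.23 (adjusted p = 0.0116 and 0.00334). Both regions 26.4 and 26.9 kb upstream of the gene were also called lower, with −2.41 and −2.60 in osimertinib DTP (adjusted p = 0.0421 and 0.0269) and −2.19 and −2.05 in osimertinib DTP + AZD5153 (adjusted p = 0.0430 and 0.0466). Those calls held in 9 and 12 of 17 alternative settings in osimertinib DTP and in 8 and 7 of 17 for osimertinib DTP + AZD5153. A cluster of 5 regions lay 84.3 to 90.3 kb beyond the 3′ end, and none of these was called. Its highest region (chr4:74545257-74545758) had 4.81, 10.4 and 9.05 CPM in DMSO, against 8.03, 7.79 and 9.47 in osimertinib DTP and 11.4, 9.89 and 2.90 for osimertinib DTP + AZD5153, and the groups overlapped. It changed by 0.06 ± 0.58 and 0.01 ± 0.57 on the log2 scale (adjusted p = 0.968 and 0.995), and their sign depended on the scaling.

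TGFA, which encodes transforming growth factor alpha, the other EGFR-only ligand here, had the largest losses, and they lay far from its start. A single region 42.8 kb upstream (chr2:70596422-70596923) had 18.7, 39.8 and 28.8 CPM in DMSO, against 2.2, 2.23 and 1.51 in osimertinib DTP and 1.40, 2.56 and 0.387 for osimertinib DTP + AZD5153. DMSO was the high group, with no overlap. The log2 fold change was −3.87 ± 0.66 in osimertinib DTP (adjusted p = 0.00374, edgeR) and −4.27 ± 0.68 in osimertinib DTP + AZD5153 (adjusted p = 0.00147), and the call held in 17 of 17 alternative settings in both. On the other side, 59.0 kb beyond the 3′ end (chr2:70387824-70388325), the levels were 4.90, 17.2 and 9.65 CPM in DMSO, against 1.05, 0.835 and 0.604 in osimertinib DTP and 0.501, 0.116 and 0.193 for osimertinib DTP + AZD5153. The 3 groups did not overlap with each other, DMSO being highest and osimertinib DTP + AZD5153 lowest. The log2 fold changes against DMSO were −3.65 ± 0.68 (adjusted p = 0.00491) and −5.15 ± 0.77 (adjusted p = 0.00122), and its neighbour 58.4 kb beyond the 3′ end changed by −3.53 and −4.99.

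Around the TGFA start (chr2:70553097-70553598) the levels were 13.2, 23.6 and 21.4 CPM in DMSO, against 4.02, 7.79 and 3.32 in osimertinib DTP and 2.5, 2.91 and 9.66 for osimertinib DTP + AZD5153. All treated libraries were below DMSO. The fall was called in osimertinib DTP + AZD5153, at −1.97 ± 0.63 (adjusted p = 0.0384, edgeR), and just missed the threshold in osimertinib DTP, at −1.95 ± 0.63 (adjusted p = 0.0542). With both promoter-heavy libraries left out it was called in both, at −2.37 in osimertinib DTP (adjusted p = 1.26e-04) and −2.76 for osimertinib DTP + AZD5153 (adjusted p = 1.18e-05). In an intronic cluster 28.4 to 30.0 kb into the gene, the highest region (chr2:70524616-70525117) had 15.0, 29.4 and 22.1 CPM in DMSO, against 7.94, 13.2 and 9.97 in osimertinib DTP and 8.92, 10.9 and 6.76 for osimertinib DTP + AZD5153. The treated groups lay below DMSO, but neither log2 fold change was called, at −1.10 ± 0.53 (adjusted p = 0.196) and −1.32 ± 0.53 (adjusted p = 0.0926). Of the 4 regions in that cluster, 2 were called lower in osimertinib DTP + AZD5153 and none in osimertinib DTP. Without both promoter-heavy libraries, 3 were called lower for osimertinib DTP + AZD5153 and 2 in osimertinib DTP, the highest region among them in both (−1.28, adjusted p = 0.0109, and −1.08, adjusted p = 0.0205), and TGFA had 7 and 8 of 9 regions called lower in place of 3 and 6.

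EREG encodes epiregulin, which binds EGFR and ERBB4, and its mark was called lower at 3 of 15 regions in osimertinib DTP and 5 of 15 for osimertinib DTP + AZD5153, all within 7.3 kb of the start. Over the start (chr4:74365051-74365552) the levels were 12.7, 19.6 and 14.8 CPM in DMSO, against 4.40, 10.6 and 3.93 in osimertinib DTP and 8.02, 4.30 and 20.3 for osimertinib DTP + AZD5153. Osimertinib DTP lay below DMSO and osimertinib DTP + AZD5153 overlapped it through its promoter-heavy library. The log2 fold changes were −1.32 ± 0.63 and −0.54 ± 0.62 and were not called (adjusted p = 0.195 and 0.598, edgeR), and without both promoter-heavy libraries they were −1.89 and −1.28 (adjusted p = 0.00144 and 0.0138). The region 0.5 kb upstream of the start was called in osimertinib DTP, at −1.89 ± 0.54 (adjusted p = 0.0317).

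The largest called EREG change in osimertinib DTP was in an intron 7.3 kb from the start (chr4:74372201-74372702), with 3.45, 3.51 and 6.84 CPM in DMSO, against 0.956, 0.417 and 0.504 in osimertinib DTP and 0.701, 0.582 and 0.773 for osimertinib DTP + AZD5153. All treated libraries were below all DMSO libraries, with log2 fold changes of −2.83 ± 0.66 (adjusted p = 0.0130, edgeR) and −2.73 ± 0.67 (adjusted p = 0.0102). In osimertinib DTP + AZD5153 the largest was at 5.0 kb (chr4:74369853-74370354), with 4.44, 5.99 and 4.73 CPM in DMSO, against 1.34, 0.139 and 1.21 in osimertinib DTP and 1.90, 0.116 and 0 for osimertinib DTP + AZD5153. Its log2 fold changes were −2.44 ± 0.89 (adjusted p = 0.0873) and −2.75 ± 0.92 (adjusted p = 0.0453), and without both promoter-heavy libraries it was called in both (−1.95, adjusted p = 0.0171, and −2.21, adjusted p = 0.00583). The highest EREG regions lay further in, 9.3 to 11.3 kb from the start, and none of these 4 was called in either comparison. The top one (chr4:74374812-74375313) had 15.8, 31.5 and 16 CPM in DMSO, against 6.79, 9.32 and 11.1 in osimertinib DTP and 15.6, 16.5 and 3.29 for osimertinib DTP + AZD5153. Its fall of −1.22 ± 0.61 in osimertinib DTP was not called (adjusted p = 0.222), though every library was below DMSO, and in osimertinib DTP + AZD5153 the groups overlapped (−0.83, adjusted p = 0.379). Without both promoter-heavy libraries it was called in osimertinib DTP (−1.22, adjusted p = 0.0169) and not for osimertinib DTP + AZD5153 (−0.31, adjusted p = 0.504), and 14 and 12 of 15 EREG regions were called lower. In osimertinib DTP all 15 EREG regions lay below DMSO without overlap, and 12 of 15 did in osimertinib DTP + AZD5153. The share of all regions that separate in this way was not counted, and neighbouring regions are not independent.

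HBEGF encodes heparin-binding EGF-like growth factor, which like EREG binds EGFR and ERBB4, and its mark moved the opposite way. Over its start (chr5:140346111-140346612) the levels were 8.98, 13.7 and 8.25 CPM in DMSO, against 14.8, 72.8 and 22.0 in osimertinib DTP and 28.6, 35.5 and 81.6 for osimertinib DTP + AZD5153. Every treated library was above every DMSO library, and the promoter-heavy ones were far above the rest. The log2 fold change was 1.82 ± 0.64 in osimertinib DTP (adjusted p = 0.0741, edgeR, not called) and 2.23 ± 0.65 in osimertinib DTP + AZD5153 (adjusted p = 0.0244). Without both promoter-heavy libraries it was 0.85 (adjusted p = 0.0605) and 1.71 (adjusted p = 1.79e-04).

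The HBEGF region with the highest level outside the promoter class lay 9.4 kb beyond the 3′ end (chr5:140322991-140323492). It had 15.1, 10.0 and 4.43 CPM in DMSO, against 28.8, 56.4 and 27.4 in osimertinib DTP and 56.8, 62.0 and 60.5 for osimertinib DTP + AZD5153. The 3 groups stood one above the other without overlap. Against DMSO the log2 fold change was 1.92 ± 0.55 (adjusted p = 0.0332, edgeR) in osimertinib DTP and 2.60 ± 0.56 (adjusted p = 0.00575) in osimertinib DTP + AZD5153. Its neighbour at 10.4 kb (chr5:140321969-140322470) followed the same order, with 3.99, 1.03 and 1.41 CPM in DMSO, against 6.69, 4.87 and 7.45 in osimertinib DTP and 15.7, 13.6 and 14.7 for osimertinib DTP + AZD5153. It was called in osimertinib DTP + AZD5153 (2.76 ± 0.61, adjusted p = 0.00606), the largest called HBEGF change there, and not in osimertinib DTP (1.55 ± 0.59, adjusted p = 0.0978). The largest called change in osimertinib DTP was 4.7 kb inside the gene (chr5:140341694-140342195), in a region that the annotation places near the start of a shorter transcript. It had 1.63, 0.516 and 1.21 CPM in DMSO, against 3.54, 4.31 and 9.47 in osimertinib DTP and 5.11, 5.82 and 9.47 for osimertinib DTP + AZD5153. The treated libraries were all higher, with log2 fold changes of 2.35 ± 0.63 (adjusted p = 0.0257) and 2.57 ± 0.64 (adjusted p = 0.0113). For HBEGF as a whole, 9 of 11 regions were called in osimertinib DTP + AZD5153 and all 11 lay above DMSO without overlap. Here too the share of all regions without overlap was not counted. With the promoter-heavy libraries left out, 8 of 11 were called in osimertinib DTP in place of 4, the region 10.4 kb beyond the 3′ end among them (1.73, adjusted p = 0.00623), and 11 of 11 for osimertinib DTP + AZD5153.

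NRG1 encodes neuregulin 1, the ligand of ERBB3 and ERBB4, and it showed no common direction. The gene is 1134.8 kb long and none of its member regions lay at its 5′ end. Its 3 promoter regions sat 908.6 to 909.7 kb into the gene, at an internal start. The highest of them (chr8:32548722-32549223) had 19.8, 21.1 and 12.1 CPM in DMSO, against 14.3, 58.4 and 10.6 in osimertinib DTP and 17.9, 15.4 and 63.6 for osimertinib DTP + AZD5153. The groups overlapped, and only the 2 promoter-heavy libraries exceeded the DMSO range. The log2 fold changes of 0.65 ± 0.69 and 0.87 ± 0.69 were not called (adjusted p = 0.613 and 0.420, edgeR), and without those libraries they were −0.47 (adjusted p = 0.354) and −0.0099 (adjusted p = 0.984).

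A pair of neighbouring NRG1 regions in an intron, 938.6 and 939.2 kb into the gene, were almost bare in DMSO. The second (chr8:32578210-32578711) had 0.726, 0.516 and 0.402 CPM in DMSO, against 6.79, 6.40 and 5.74 in osimertinib DTP and 20.1, 16.3 and 2.32 for osimertinib DTP + AZD5153. All treated libraries were above DMSO, and replicate 3 of osimertinib DTP + AZD5153 was the lowest of them. The log2 fold change was 3.49 ± 0.74 (adjusted p = 0.00879, edgeR) in osimertinib DTP and 4.53 ± 0.76 (adjusted p = 0.00178) in osimertinib DTP + AZD5153, and at the first it was 3.34 and 4.23 (adjusted p = 0.00859 and 0.00184). A region 1061.6 kb into the gene was also called higher in both, at 2.47 and 2.2 (adjusted p = 0.0351 and 0.0403), calls that held in 10 and 6 of 17 alternative settings. The highest intronic region (chr8:32227275-32227776), 588.3 kb into the gene, had 11.5, 15.9 and 10.8 CPM in DMSO, against 10.1, 13.2 and 14.1 in osimertinib DTP and 26.9, 32.1 and 2.90 for osimertinib DTP + AZD5153. Osimertinib DTP lay in the DMSO range, and the last group held both the highest libraries and the lowest. On the log2 scale it changed by −0.03 ± 0.66 and 0.70 ± 0.66 (adjusted p = 0.987 and 0.504). Without both promoter-heavy libraries the latter was 1.3 (adjusted p = 0.00259), and 8 of 16 NRG1 regions were then called higher in osimertinib DTP + AZD5153 instead of 3, where 22.8% of all regions were, and 4 in osimertinib DTP, where 14.9% were.

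**Figure D2:**
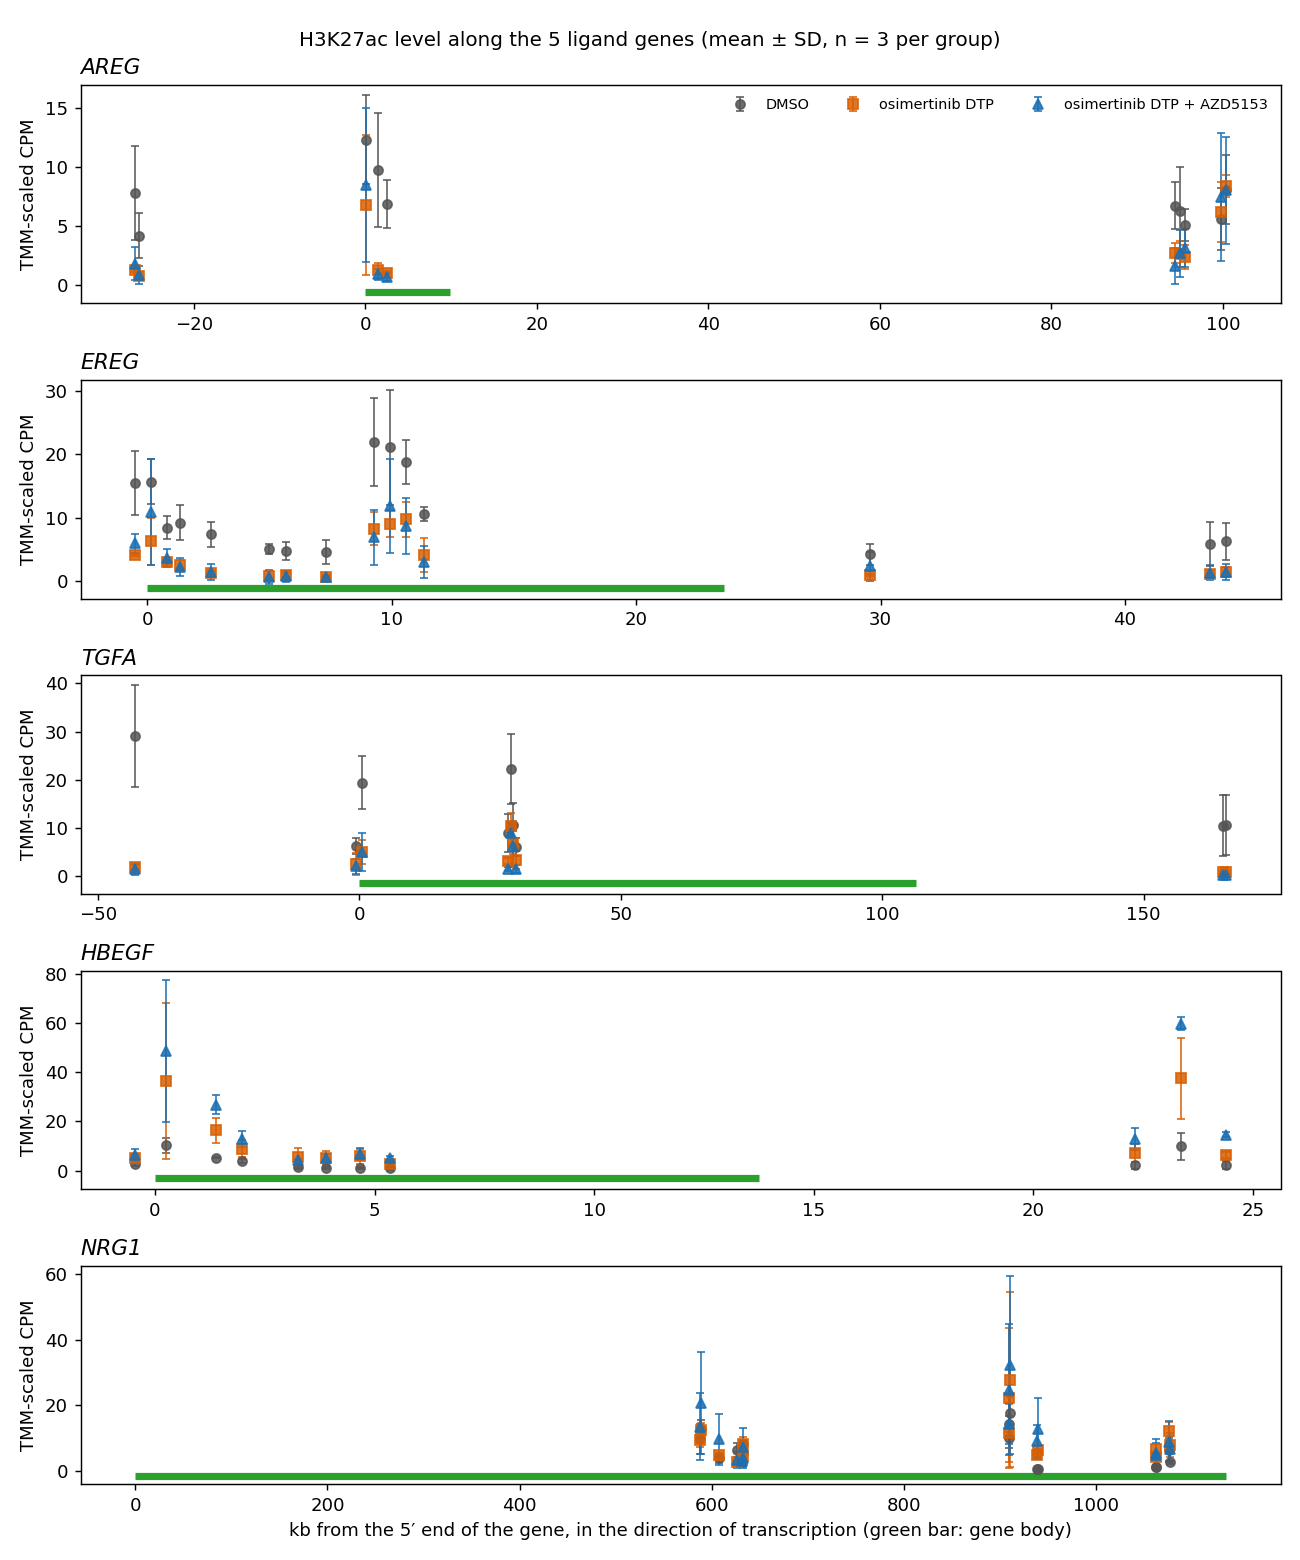
H3K27ac level along the 5 ligand genes, in TMM-scaled CPM per region (vertical axis, mean and SD of 3 libraries), against position in the direction of transcription in kb from the 5′ end. A green bar marks the gene body, and colours mark DMSO, osimertinib DTP and osimertinib DTP + AZD5153. At TGFA the tall DMSO region upstream, at 18.7 to 39.8 CPM, is at 0.387 to 2.56 CPM in the treated libraries, and at HBEGF the regions at the start and beyond the 3′ end are higher in the treated groups.

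To give each gene 1 value per library, counts were summed over its promoter regions and, separately, over its other regions, and each table of sums was scaled on its own. At promoters, AREG had 46.1, 61.7 and 72.3 CPM in DMSO, against 17.7, 20.9 and 15.3 in osimertinib DTP and 18.7, 15.2 and 25.4 for osimertinib DTP + AZD5153. EREG had 100.5, 131.2 and 138.3 CPM in DMSO, against 37.8, 25.9 and 45.5 in osimertinib DTP and 58.6, 33.2 and 49.1 for osimertinib DTP + AZD5153. TGFA had 61.1, 83.0 and 96.8 CPM in DMSO, against 19.4, 18.5 and 16.5 in osimertinib DTP and 12.2, 11.8 and 20.9 for osimertinib DTP + AZD5153. In each of these 3 genes all 6 treated libraries were below all 3 DMSO libraries. HBEGF had 51.9, 49.8 and 56.0 CPM in DMSO, against 97.3, 129.3 and 219.6 in osimertinib DTP and 155.0, 175.9 and 162.2 for osimertinib DTP + AZD5153, with all treated libraries above DMSO. NRG1 had 150.9, 131.2 and 108.1 CPM in DMSO, against 113.4, 181.8 and 98.6 in osimertinib DTP and 134.1, 113.9 and 205.9 for osimertinib DTP + AZD5153, and its groups overlapped.

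By this measure the promoters of 4 of the 5 ligands were called in osimertinib DTP, where 6.15% of 12295 genes were called in either direction. TGFA was 4.41-fold lower (log2 fold change −2.14 ± 0.30, adjusted p = 0.00780, edgeR), EREG 3.41-fold lower (−1.77 ± 0.28, adjusted p = 0.0103) and AREG 3.32-fold lower (−1.73 ± 0.29, adjusted p = 0.0113). HBEGF was 2.82-fold higher (1.5 ± 0.27, adjusted p = 0.0143), while NRG1 was at 0.02 ± 0.29 (adjusted p = 0.984). The same 4 passed in osimertinib DTP + AZD5153, where 13.9% of genes were called, with −2.42 ± 0.30 at TGFA (adjusted p = 0.00283), −1.60 ± 0.29 at AREG (adjusted p = 0.00839), −1.39 ± 0.28 at EREG (adjusted p = 0.0126) and 1.64 ± 0.27 at HBEGF (adjusted p = 0.00596). NRG1 was at 0.22 ± 0.29 (adjusted p = 0.668). The 4 osimertinib DTP calls were lost without replicate 2 of DMSO (adjusted p = 0.0514 to 0.0777) or replicate 3 of DMSO (adjusted p = 0.0516 to 0.0698), with the same signs. Calls were lost over all 12295 genes as well. The 344 higher and 412 lower became 3 and 8 without replicate 2 of DMSO, and 26 and 27 without replicate 3.

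Away from promoters, EREG had 257, 316 and 268 CPM in DMSO, against 91.9, 86.1 and 129.4 in osimertinib DTP and 139.6, 99.7 and 46.6 for osimertinib DTP + AZD5153. TGFA had 154, 274 and 254 CPM in DMSO, against 62.5, 68.5 and 72.7 in osimertinib DTP and 44.8, 57.4 and 47.4 for osimertinib DTP + AZD5153. HBEGF had 89.3, 44.5 and 45.0 CPM in DMSO, against 162.7, 226.1 and 196.3 in osimertinib DTP and 286.2, 273.7 and 533.7 for osimertinib DTP + AZD5153. These 3 genes had no overlap between treated and DMSO libraries, and they were called in both comparisons, in tables where 30.5% and 39.4% of 9382 genes were called. EREG changed by −1.45 ± 0.38 and −1.55 ± 0.38 (adjusted p = 0.0155 and 0.00919, edgeR), TGFA by −1.74 ± 0.30 and −2.19 ± 0.31 (adjusted p = 0.00213 and 6.05e-04) and HBEGF by 1.71 ± 0.38 and 2.61 ± 0.39 (adjusted p = 0.00722 and 8.27e-04).

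AREG and NRG1 were not called over their other regions. AREG went from 124 ± 33.9 CPM (SD, n = 3) in DMSO to 64.3 ± 16.1 and 61.1 ± 31.7, with log2 fold changes of −0.95 ± 0.43 and −1.01 ± 0.43 (SE, adjusted p = 0.120 and 0.0866, edgeR). NRG1 went from 148 ± 19.8 CPM (SD, n = 3) to 217 ± 25.0 and 245 ± 127, with 0.55 ± 0.39 and 0.73 ± 0.40 (SE, adjusted p = 0.317 and 0.164, edgeR). The wide spread of NRG1 in osimertinib DTP + AZD5153 came from replicate 3, at 98.7 CPM against 307 and 329. Without that library NRG1 was called higher in both comparisons, with 0.60 (adjusted p = 0.0199) and 1.15 (adjusted p = 7.87e-04), and AREG was called lower in osimertinib DTP, with −0.89 (adjusted p = 0.0272). In that fit 2456 of 9382 genes were called higher and 2136 lower in osimertinib DTP, and 2528 and 2412 for osimertinib DTP + AZD5153. With so many genes called, these calls are not read as particular to NRG1 or AREG.

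**Figure D3:**
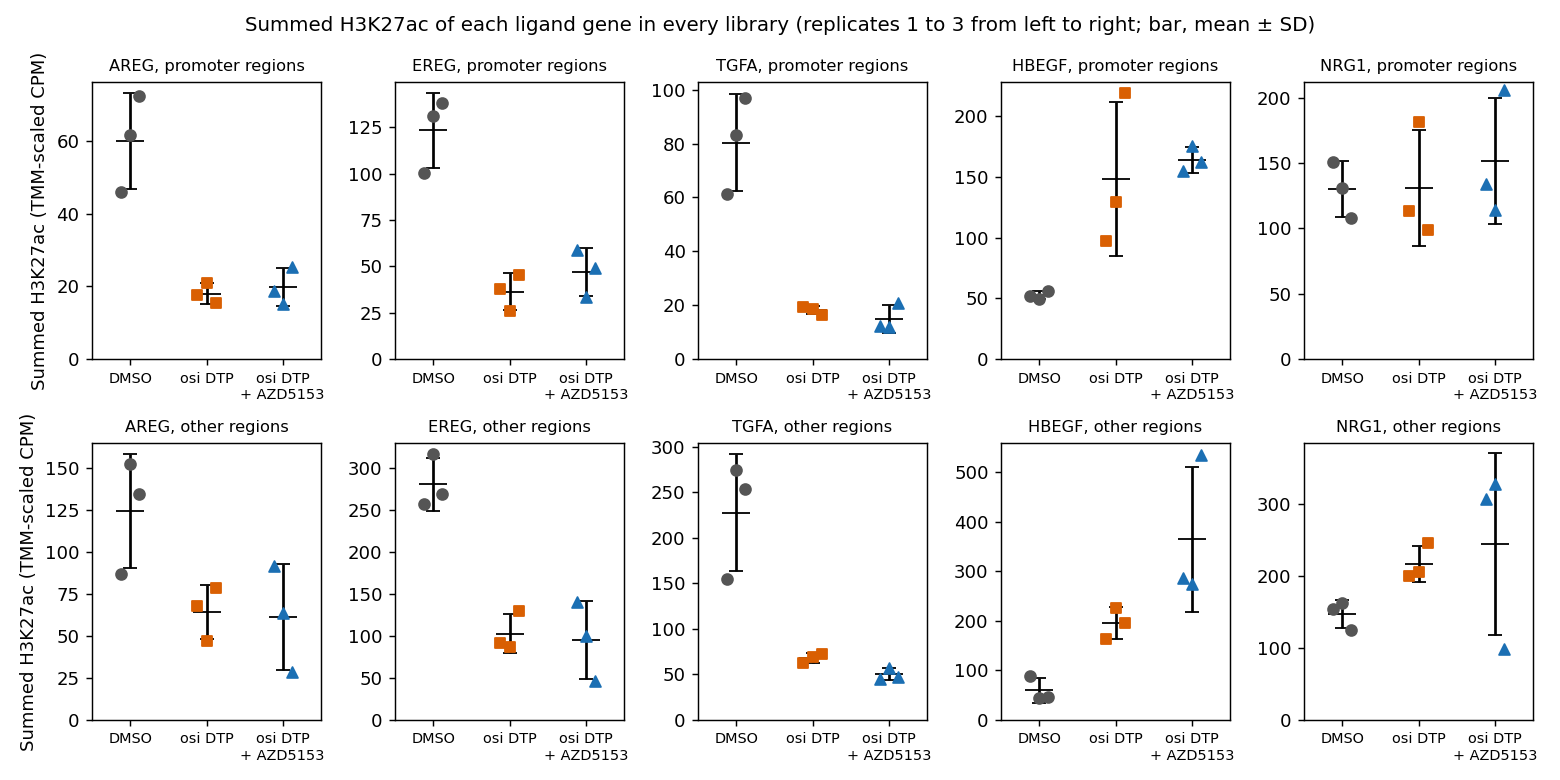
Summed H3K27ac counts per gene in TMM-scaled CPM (vertical axis), over promoter regions in the upper row and all other regions in the lower row, with 1 point per library and bars for the mean and SD of 3 libraries. At promoters AREG, EREG and TGFA are lower and HBEGF higher in every treated library than in every DMSO library, while NRG1 at 98.6 to 205.9 CPM overlaps between groups.

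No ligand region was called between osimertinib DTP + AZD5153 and osimertinib DTP (edgeR, 0 of 61 higher and 0 of 61 lower, where 0% of all regions were called in either direction). Before adjustment, 1 of the 61 members and 7013 of all tested regions were under the threshold of 0.05. That member was the HBEGF region 10.4 kb beyond the 3′ end, at 1.21 ± 0.57. Over all regions DESeq2 called 21 higher and 73 lower, and voom 2965 and 2824. Among the members DESeq2 called 0 and voom 1, the NRG1 region 939.2 kb into the gene, at 1.46 (adjusted p = 0.0391). Groups did not overlap at 7 members. How many of all regions separate in this way was not counted, so the 7 are not read as an excess. Among these 7, the group with AZD5153 was higher at 3 HBEGF regions and 1 EREG region and lower at 3 TGFA regions. The TGFA ones included both regions beyond its 3′ end, at −1.5 and −1.47. The gene medians of the log2 fold change were 0.53 for HBEGF, 0.24 for NRG1, 0.15 for AREG, 0.09 for EREG and −0.40 for TGFA, against 0.06 over all tested regions. These medians rested on single libraries. With 1 library or both promoter-heavy ones left out they ran from 0.20 to 0.82 for HBEGF, −0.09 to 0.62 for NRG1, −0.38 to 0.44 for AREG, −0.41 to 0.37 for EREG and −1.04 to −0.33 for TGFA. Without both promoter-heavy libraries 1828 regions were called higher and 1587 lower, none of them a member, and all 16 NRG1 regions were positive. In sums, 0% of genes were called at promoters and 0% at other regions. HBEGF was at 0.15 ± 0.26 at its promoters (adjusted p = 0.929) and at 0.90 ± 0.37 over its other regions (adjusted p = 0.449), and TGFA at −0.28 ± 0.30 and −0.44 ± 0.30 (adjusted p = 0.859 and 0.636). The HBEGF difference over other regions was 0.52 (adjusted p = 0.314) with replicate 3 of osimertinib DTP + AZD5153 left out.

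The peak lists were called by the authors in each library on its own. They come from the same libraries as the counts and are not independent of them. A member region was scored as covered where at least 2 of the 3 libraries of a group had a peak that touched it. In the treated groups fewer regions of AREG, EREG and TGFA were covered and more of HBEGF and NRG1. The share of all annotated regions covered was not counted. Every member had a peak in all 3 libraries of some group, and the rule that chose the annotated regions is not known. A region bare in the treated groups may thus have entered only through DMSO, and the reverse. Part of the contrast may be set by that choice, so the coverage is a description and not separate support. In DMSO all 10 AREG, all 15 EREG and all 9 TGFA regions were covered, against 3 of 11 at HBEGF and 10 of 16 at NRG1. In osimertinib DTP coverage was 5 at AREG, 7 at EREG and 4 at TGFA, but 10 at HBEGF and all 16 at NRG1. In osimertinib DTP + AZD5153 it was 5, 9 and 3 at AREG, EREG and TGFA and all 11 and 16 at HBEGF and NRG1. Totals over the 61 regions therefore moved little, at 47, 42 and 44. Lists held 54188 to 70227 peaks. They reached a −log10 q as low as 1.31, and at a −log10 q of at least 5 the totals were 46, 39 and 43.

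Several of the regions named above changed between a peak in all 3 libraries and none, a contrast that the choice of regions may partly set. The TGFA region 42.8 kb upstream had a peak in all 3 DMSO libraries, with a fold enrichment of 13.3 to 31.6, and in no treated library. Both regions beyond the 3′ end of TGFA, the AREG region 1.4 kb into the gene and the EREG intron region at 7.3 kb likewise had peaks in all DMSO libraries and in no treated one. The reverse held for both NRG1 intron regions at 938.6 and 939.2 kb, with a peak in 0 DMSO and all 6 treated libraries. At the HBEGF start a peak was present throughout, with a fold enrichment of 6.38 to 10.4 in DMSO, against 11.3 to 52.9 in osimertinib DTP and 24.4 to 50.5 for osimertinib DTP + AZD5153, the upper ends being the promoter-heavy libraries and the other treated ones at 11.3, 15.0, 24.4 and 27.5. The strongest peak at any member, 90.6-fold, was over the internal NRG1 start in the promoter-heavy library of osimertinib DTP. The other libraries of that group had 24.6 and 17.7 there, within the DMSO range of 13.6 to 29.1.

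Other genes of the ERBB pathway, from a fixed list, were read against the same shares of all regions, 5.58% higher and 5.13% lower in osimertinib DTP and 9.05% and 9.01% for osimertinib DTP + AZD5153. EGF, BTC, EPGN and NRG2, the remaining ligands with an annotated region, had 9 regions, of which 2 were called lower in osimertinib DTP and 4 for osimertinib DTP + AZD5153, with none higher. Their median log2 fold changes were −1.37 and −1.5. The BTC region at chr4:74670511-74671012, on the same chromosome as AREG and EREG, had 90, 230 and 123 counts in DMSO, against 9, 7 and 8 in osimertinib DTP and 18, 10 and 0 for osimertinib DTP + AZD5153. BTC encodes betacellulin, a ligand of EGFR and ERBB4, and this distal region was much lower in every treated library, at −4.05 ± 0.78 and −3.79 ± 0.77 (adjusted p = 0.00603 and 0.00431, edgeR). NRG3 and NRG4 had no annotated region.

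The receptors had 45 regions, 34 of them at EGFR. In osimertinib DTP 6 EGFR regions were called lower and none higher, and in osimertinib DTP + AZD5153 7 were lower and 2 higher. ERBB2, with 8 regions, and ERBB3, with 2, had no call. The single ERBB4 region (chr2:212451608-212452109, intron) had 3, 3 and 3 counts in DMSO, against 51, 41 and 65 in osimertinib DTP and 97, 95 and 5 for osimertinib DTP + AZD5153. It rose by 4.22 ± 0.81 and 4.58 ± 0.81 on the log2 scale (adjusted p = 0.00574 and 0.00222, edgeR), although replicate 3 of osimertinib DTP + AZD5153 was near the DMSO level. The shedding genes ADAM10, ADAM17, RHBDF1 and RHBDF2 had 26 regions. Of these, 1 was called higher in osimertinib DTP and 2 for osimertinib DTP + AZD5153, all at ADAM17, the main sheddase of these ligands. That is no larger a share than the 5.58% and 9.05% of all regions called higher. The stronger one (chr2:9574065-9574566) had 19, 16 and 22 counts in DMSO, against 76, 56 and 121 in osimertinib DTP and 141, 174 and 23 for osimertinib DTP + AZD5153. It changed by 2.28 ± 0.62 and 2.79 ± 0.63 on the log2 scale (adjusted p = 0.0261 and 0.00677, edgeR).

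The promoter profiles most like those of the ligands were sought over 11591 genes and 9 libraries, as the mean absolute difference of the centred log2 levels of each gene's highest promoter region. AREG was closest to TBC1D31 (0.0703) and MCM2 (0.105), against a median of 0.645 over all genes. EREG was closest to G0S2 (0.146) and UCN2 (0.176), against 0.732, and HBEGF to DYSF (0.124) and STX11 (0.137), against 0.754. TGFA was closest to LINC00659 (0.161) and MIR589 (0.206), against 1.05, and NRG1 to CMTM7 (0.0799) and FBXW8 (0.0811), against 0.412. These profiles carry the high levels of both promoter-heavy libraries, and the likeness is a description over few libraries.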

How the data were processed

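H3K27ac ChIP-seq was done on 9 libraries of H1975 cells in 3 groups, with 1 pooled input that entered no fit. Per the labels' processing notes, the submitters used BWA 0.7.17, MACS2 2.2.6, featureCounts 2.0.0 and ChIPseeker 1.29.1 with the build hg38. The deposited tables hold read counts per region, with no normalization, and the deposited annotated table adds a gene symbol, a class and a distance to a start site. The rule that chose the annotated regions is not given in the sources used here, nor is whether duplicate reads were removed. The peak lists were deposited per library, and for every peak they hold the authors' ratio of signal to background (fold enrichment) and a q as a −log10 value. Column names of the count tables matched the sample titles. The file name of 1 peak list (osimertinib DTP, replicate 3) gives another cell line name than its labels, and the labels were used.

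The main test used edgeR 4.0.16 under R 4.3.3 with limma 3.58.1: filterByExpr at a minimum count of 10, TMM scaling, a quasi-likelihood fit with robust estimation, and 1 mean per group over the 9 libraries. Of 169637 regions, 157919 were tested, and p-values were adjusted over all of them (Benjamini-Hochberg, threshold 0.05). Sums per gene were tested in the same way over 12295 genes (promoter regions) and 9382 genes (other regions). The fit was also run on simulated data, drawn with the same spread for all regions and no promoter-heavy library. That run does not cover the libraries that stood apart here. CPM are counts scaled by the TMM-adjusted library total, and p-values measure the spread between replicates, which the labels call biological. The same values were recomputed with DESeq2 1.42.0, with total library size in place of TMM, with a loess offset (span 0.3), no filter, only the libraries compared, a block for the replicate number, voom with library quality weights, each library left out in turn and, added after the data had been seen, both promoter-heavy libraries left out. Peaks were also scored at a −log10 q of at least 5 and at an overlap of at least 251 of 502 bases.

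Same-numbered libraries of osimertinib DTP and DMSO deviated together from their group means (Pearson r across regions 0.349, 0.368 and 0.341). Libraries with different numbers were not compared in this way, so whether the numbers pair them was not settled. The main fit treated them as unpaired. This did not hold for osimertinib DTP + AZD5153 with DMSO (−0.008, 0.549 and 0.355). No pair of libraries was a duplicate (lowest chi-square per degree of freedom 4.00). The members, gene lists and tests were chosen with earlier results of these data known. For each gene the regions given library by library were the highest promoter region, the highest other region and the called region of largest change in each comparison with DMSO. Pathway genes were named by their called region of largest change, and the 2 genes most like each ligand by log2(CPM + 0.5) at a mean of at least 5 CPM. The other regions named were chosen after their values were seen. A further gene of the marker lists is not reported here.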

Additional observations from a re-analysis of the deposited data

Results flagged for a closer look

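The annotated table leaves out most counted regions, so regions of the whole count table that lay inside the ligand genes but carried no annotation were read as well, in the same edgeR fit. Signal above DMSO was called at 2 of 7 such regions in HBEGF and 4 of 49 tested in NRG1. For NRG1 that is no larger a share than the 9.05% of all regions called higher in osimertinib DTP + AZD5153. In HBEGF the region at chr5:140339605-140340106, 6.7 kb into the gene, was higher by 2.58 on the log2 scale in osimertinib DTP (adjusted p = 0.0214, edgeR) and by 2.42 in osimertinib DTP + AZD5153 (adjusted p = 0.0196). It had 8, 2 and 5 counts in DMSO, against 21, 21 and 39 in osimertinib DTP and 25, 22 and 15 for the last group. The HBEGF region at chr5:140332913-140333414, 13.4 kb into the gene, was higher by 2.40 in osimertinib DTP + AZD5153 (adjusted p = 0.0478) and had 2.30 in osimertinib DTP (adjusted p = 0.0746). Its counts were low, with 7, 1 and 7 in DMSO and 15 in the pooled input.

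In NRG1 the regions were called in osimertinib DTP + AZD5153 only. The one at chr8:32579284-32579785, 940.3 kb into the gene and next to the called intron pair of the report, was higher by 3.22 (adjusted p = 0.0130, edgeR), with 7, 3 and 1 counts in DMSO and 56, 30 and 5 in osimertinib DTP + AZD5153. Those at chr8:32250091-32250592, chr8:32583674-32584175 and chr8:32630835-32631336 were higher by 2.06, 2.09 and 2.67 (adjusted p = 0.0399, 0.0348 and 0.0377). In osimertinib DTP the 4 NRG1 regions had log2 fold changes of 2.42, 2.07, 0.99 and 0.65 in the same order, with adjusted p of 0.0542 to 0.709, and the difference between the treated groups was not called at any of them.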

How the results depend on the processing

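All 44 calls of a member region kept their direction in the 17 alternatives, but their number did not hold. In osimertinib DTP against DMSO the 7 higher regions became 4 without TMM, 14 with only the libraries compared, 14 with voom and 12 without both promoter-heavy libraries. The 10 lower ones became 19 with DESeq2, 23 with only the libraries compared, 28 with voom and 26 without both. In osimertinib DTP + AZD5153 against DMSO the 12 higher became 19 with voom and 19 without both, and the 15 lower became 7 with only the libraries compared, 26 with voom and 26 without both. Calls over all regions moved too, with 142167 to 161681 regions tested in these fits. In osimertinib DTP the 8814 higher became 5950, 19930, 26618 and 24167 in the same settings. The 8107 lower became 15406, 18728, 23713 and 19390. For osimertinib DTP + AZD5153 the 14286 higher became 37608 and 36893, and the 14232 lower became 8491, 39284 and 32049. The cause was not tested. Between the treated groups, voom called 1 region higher. Leaving out 1 library gave 0 to 14 higher and 1 to 25 lower in osimertinib DTP, and 2 to 18 higher and 6 to 22 lower in osimertinib DTP + AZD5153. The fewest came without replicate 2 or 3 of DMSO and the most without replicate 3 of osimertinib DTP + AZD5153. Over all regions, 668 to 22942 were called higher and 482 to 20489 lower in osimertinib DTP. For osimertinib DTP + AZD5153 it was 3943 to 29786 and 4526 to 27986. Called promoter sums, 4 in both comparisons, were then 0 to 4 in osimertinib DTP and 3 to 4 for osimertinib DTP + AZD5153. Of all 12295 genes, 3 to 891 were called higher and 8 to 919 lower in osimertinib DTP. For osimertinib DTP + AZD5153 it was 249 to 1474 and 323 to 1604. Called sums of other regions, 3 in both comparisons, were 5 with voom in both, and 2 to 5 (osimertinib DTP) and 3 to 4 (osimertinib DTP + AZD5153) with 1 library left out. Of all 9382 genes, voom called 2632 higher and 2581 lower in osimertinib DTP, and 2770 and 2876 for osimertinib DTP + AZD5153. With 1 library left out, 794 to 2456 were called higher and 811 to 2136 lower in osimertinib DTP. For osimertinib DTP + AZD5153 it was 1136 to 2528 and 1205 to 2412. Regions with a peak in osimertinib DTP + AZD5153 (44) were 26 to 44, with 26 without replicate 1 or 2.

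With a block for the replicate number, 6 regions were called higher and 10 lower in osimertinib DTP, 11 and 12 for osimertinib DTP + AZD5153, and 0 and 0 between the treated groups. Over all 164791 regions tested, it was 8899 and 7127, 12491 and 14696, and 0 and 0. In osimertinib DTP, the HBEGF region 1.4 kb into the gene lost its call. For osimertinib DTP + AZD5153, 1 region each of AREG (26.9 kb upstream), EREG (5.7 kb), TGFA (30.0 kb) and NRG1 (1061.6 kb) lost its call. Not all same-numbered libraries of that group and DMSO deviated together. The block changed no call of a summed gene.

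Among the values of named regions and summed genes, signs turned only where there was no call. The highest AREG region beyond the 3′ end had −0.066 in osimertinib DTP with DESeq2 (−0.22 to 0.33 with 1 library left out). In osimertinib DTP + AZD5153 it had −0.16 without TMM, −0.0068 with loess and −0.0078 with the block (−0.32 to 0.39). The highest NRG1 intron region in osimertinib DTP had 0.041 without the filter, 0.021 with only the libraries compared, 0.12 with the block and 0.016 with voom (−0.15 to 0.22). The NRG1 start region had −0.018 with voom and −0.47 without both promoter-heavy libraries in osimertinib DTP (−0.44 to 1.14), and −0.0099 without both in osimertinib DTP + AZD5153 (−0.090 to 1.18). Summed NRG1 promoters had −0.099 with voom and −0.29 without both in osimertinib DTP (−0.29 to 0.19), and −0.054 without both in osimertinib DTP + AZD5153 (−0.051 to 0.39). Summed HBEGF promoters between the treated groups had −0.11 to 0.50 with 1 library left out. Scaling moved the median of all regions, at 0.15 and 0.23 in the report for both comparisons with DMSO, to 0.06 and −0.02 without TMM, 0.03 and 0.27 with DESeq2, 0.09 and 0.30 with loess and 0.05 and −0.09 with voom. Without TMM, 9564 regions of the whole table were called higher and 15152 lower in osimertinib DTP + AZD5153, against 14286 and 14232 in the report. Depth limits the regions that are nearly bare in a group, such as the NRG1 intron pair in DMSO with 2 to 10 counts a library.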

Other observations

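Outside the annotated table, a stretch inside NRG1 lost H3K27ac at part of its regions. NRG1 had 54 such regions inside the gene, of which 49 were tested. In osimertinib DTP, 6 of them were called lower and none higher, and in osimertinib DTP + AZD5153 3 were lower and 4 higher (edgeR). Over all regions 5.13% were called lower and 5.58% higher in the first comparison, and 9.01% and 9.05% in the second, so the counts of the second were not above the background. The lower ones lay 684.7 to 705.9 kb into the gene, with uncalled regions between them. The one with the lowest adjusted p (chr8:32330997-32331498) had 111, 105 and 64 counts in DMSO, against 10, 7 and 10 in osimertinib DTP and 16, 11 and 2 for osimertinib DTP + AZD5153, with log2 fold changes of −3.20 and −2.99 (adjusted p = 0.00574 and 0.00424, edgeR). The other 5 called in osimertinib DTP were at −2.17 to −3.21.

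One region each of AREG, EREG and TGFA was called lower in both comparisons. At AREG, 4.6 kb into the gene, the changes were −2.29 and −2.60 on the log2 scale (adjusted p = 0.0464 and 0.0223, edgeR). At EREG, 8.0 kb into the gene, they were −2.52 and −2.76 (adjusted p = 0.0451 and 0.0263). At TGFA, 1.7 kb into the gene, they were −2.49 and −2.89 (adjusted p = 0.0293 and 0.0117).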
